A study of Saccharomyces cerevisiae with 6 samples.

Results

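Flocculins are cell wall proteins by which yeast cells stick to each other and to surfaces, and the genes described here are the flocculin genes FLO1, FLO5, FLO9, FLO10 and FLO11 with the regulators FLO8, TEC1 and MSS11. They were chosen by gene name, 8 of the 7125 genes in the deposited table, and all 8 had enough counts to be tested. RNA was sequenced from Saccharomyces cerevisiae of the S288C background in 3 wild-type libraries and 3 libraries of a strain lacking KAP114, which encodes a nuclear import receptor of the TATA-binding protein. All 6 libraries came from cells in the rich medium YPD with 1.5 M NaCl, so both genotypes shared the salt and no response to salt was measured. Whether libraries of one genotype were separate cultures is not stated in the labels, and p-values therefore reflect the variation among libraries alone, which may be technical.

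Flo1, Flo5, Flo9 and Flo10 are lectin-like proteins that bind mannose chains on neighbouring cells, which makes cells clump and sink. Flo11 is known for adhesion to agar and plastic and for filamentous growth. The flocculin genes lie near chromosome ends, where silent chromatin can reach them, and are switched on by transcription factors that answer to protein kinase A and to the filamentous growth MAP kinase cascade. Flo8 and Mss11 act together at flocculin promoters, and Tec1 acts with Ste12 at promoters of filamentous growth genes such as FLO11.

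The central part of a flocculin gene is built of tandem repeats, and the repeat unit of 3 of the genes is almost the same sequence. This bears on every value below for FLO1, FLO5 and FLO9, because a read from such a unit matches more than one gene. One unit of 135 bases is shown for each gene, 5′ to 3′ in the direction of the gene, from RefSeq build R64, at chrI:205680-205814 (plus strand) in FLO1, chrI:25557-25691 (minus strand) in FLO9 and chrVIII:526859-526993 (plus strand) in FLO5. Capitals mark the bases that differ from the FLO1 unit.
FLO1: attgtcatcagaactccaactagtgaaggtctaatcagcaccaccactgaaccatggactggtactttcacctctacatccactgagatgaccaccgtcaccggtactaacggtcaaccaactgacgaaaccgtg
FLO9: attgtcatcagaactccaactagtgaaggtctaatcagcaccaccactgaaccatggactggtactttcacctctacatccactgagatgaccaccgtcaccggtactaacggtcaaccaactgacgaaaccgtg
FLO5: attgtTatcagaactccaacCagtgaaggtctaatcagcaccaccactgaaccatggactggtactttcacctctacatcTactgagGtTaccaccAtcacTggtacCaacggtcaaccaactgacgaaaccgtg
The FLO9 unit had 0 differences from the FLO1 unit, and the FLO5 unit had 8, an identity of 94.1%.

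Over whole genes, FLO1 and FLO9 shared the most sequence. Of all stretches of 75 bases in FLO9, 52.8% also occurred elsewhere in the genome, against 41.6% in FLO1 and 14.2% in FLO5. The share was 0% in FLO10 and FLO11, whose repeats, spaced 189 and 81 bases apart, occurred in no other gene at this length. FLO9 shared 42.7% of its stretches with FLO1, and FLO1 shared 35.3% with FLO9. Neither the read length nor the way reads with several matches were divided is known from the labels and files used. The ribosomal RNA precursor gene RDN37, which is annotated as a pair of copies, had nearly equal counts on both, with 642822 and 641801 in wild-type library 1. FLO10 and FLO11 could thus be counted without reads from other genes at this length, while the division of reads among FLO1, FLO5 and FLO9 is uncertain.

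**Figure D1:**
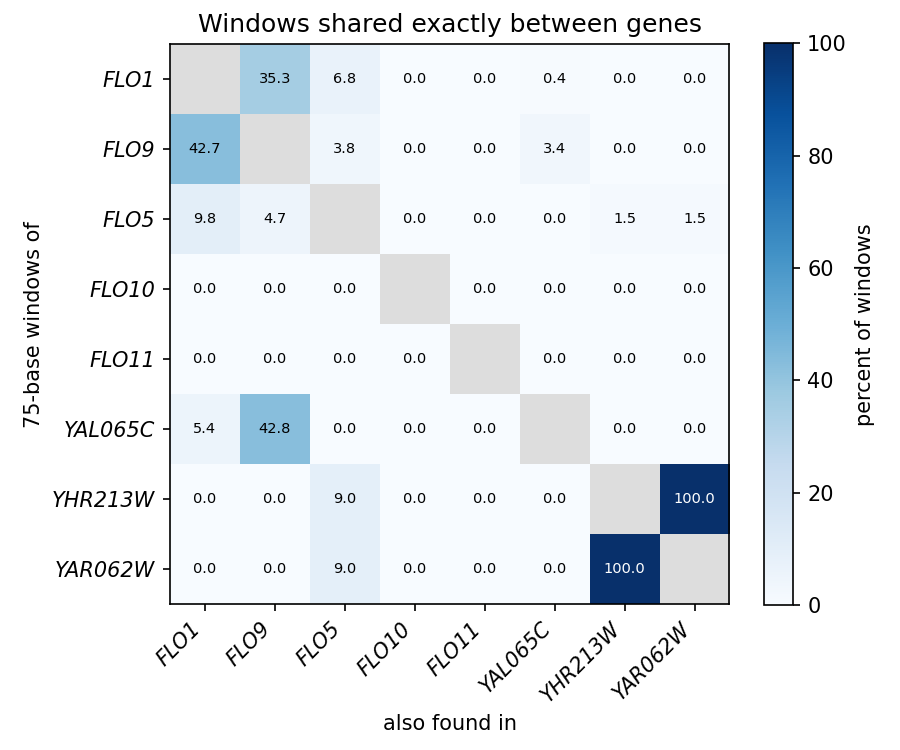
Percent of the 75-base stretches of each gene (rows) that occur exactly in another gene (columns), for the 5 flocculin genes and 3 flocculin-like fragments, with darker blue for a larger share. FLO1 and FLO9 share the most among the flocculin genes, 42.7% of FLO9 and 35.3% of FLO1, while FLO10 and FLO11 share 0% with any gene shown.

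Library totals ranged from 33638728 to 38540115 counts. KAP114 had 257, 336 and 312 counts in wild-type libraries 1 to 3 and 0 in each knockout library, which goes with the labels. Compared with 8.08 ± 0.763 CPM (counts scaled to the library size, SD, n = 3) in the wild type, it was lowered at least 279-fold, against a floor of 0.0289 CPM that 3 counts over the knockout group make. Knockout library 1 stood apart on the first principal component, which held 88.0% of the variance, at 12.01 against 53.0 and 42.4 for the other knockout libraries and -43.0 to -29.5 for the wild type. The share of counts on RDN37 also moved with genotype, from 3.69% to 4.54% in the wild type and from 9.05% to 12.35% in the knockout. With RDN37 left out under TMM scaling, the same number of members, 4, was called. FLO5 and FLO9 then had log2 fold changes of -0.74 and -0.94. TMM scaling trims extreme genes, so this fit could hardly differ. Scaling by library totals without RDN37, chosen after seeing the data, also called 4 members, but not the same ones. There FLO1 lost its call (edgeR adjusted p = 0.0640) and TEC1 gained one (0.0474). For the members, results that rest on knockout library 1 are also given without it. For most neighbours and pathway genes such results are not given.

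Of the 8 genes, FLO5, FLO9 and FLO10 were lower in the knockout, FLO1 was slightly higher, and FLO11, FLO8, TEC1 and MSS11 did not pass the test. These 4 calls among 8 genes stand against a background of 64.3% of the 6080 tested genes, 34.3% called higher and 30% called lower, by edgeR's quasi-likelihood fit at a Benjamini-Hochberg adjusted p under 0.05. A share of called members at or below that background is not a result about flocculins as a class. Only 2 members were called when wild-type library 1, wild-type library 3 or knockout library 3 was left out. The groups did not overlap in TMM-scaled CPM for 5 of the 8 genes, FLO1, FLO5, FLO9, FLO10 and TEC1, where 73.8% of tested genes did not overlap. Because each library is bulk RNA, fewer cells expressing a gene and less RNA per cell cannot be told apart.

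**Figure D2:**
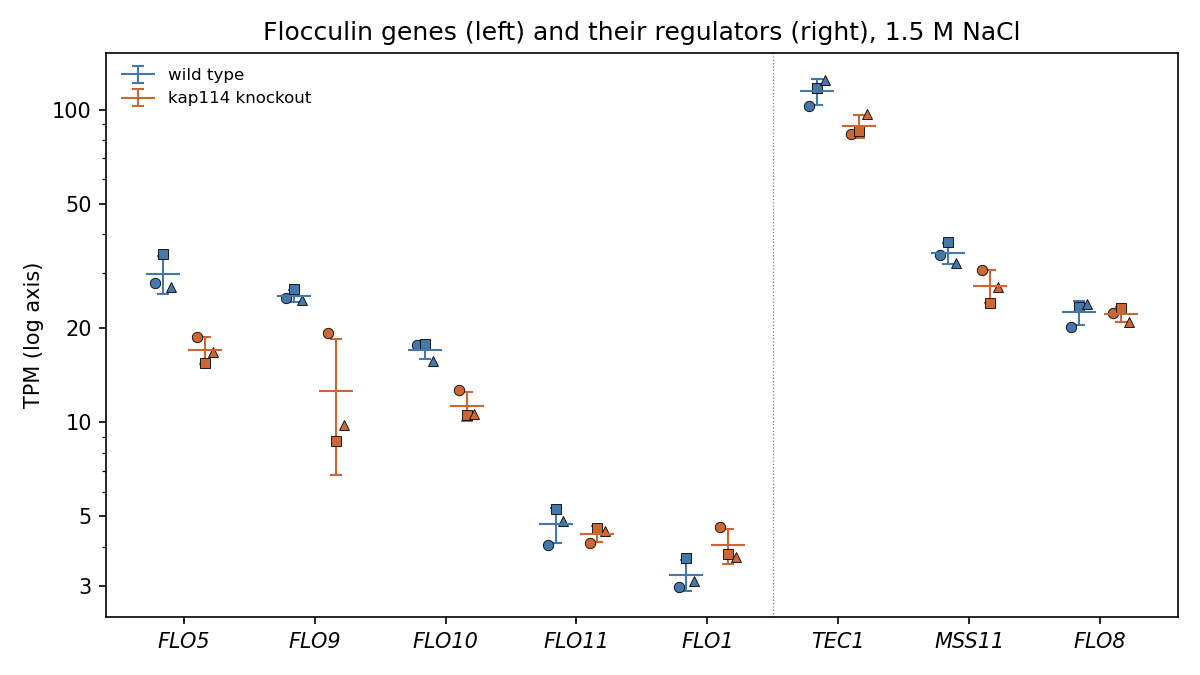
Level of each gene in TPM (a measure per length, log axis) in the wild-type (blue) and knockout (orange) libraries, with circles, squares and triangles for libraries 1, 2 and 3 and bars for the mean ± SD (n = 3 each). FLO5, FLO9 and FLO10 lie lower in all 3 knockout libraries, FLO9 with a wide spread from 8.72 to 19.3 TPM, and FLO11 and FLO8 lie in overlapping ranges.

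FLO5 (YHR211W, chrVIII:525392-528619, plus strand), for a flocculin close to Flo1, had the highest flocculin level per length in the wild type. Its level was 27.9, 34.7 and 27.1 TPM in wild-type libraries 1 to 3 and 18.8, 15.5 and 16.8 TPM in knockout libraries 1 to 3. Every knockout library was below every wild-type library. FLO5 fell 1.67-fold, a log2 fold change of -0.74 ± 0.13 (SE), and its edgeR adjusted p was 0.00250. The call held under each of the 18 alternatives of scaling, filter, tool, block or left-out library.

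FLO9 (YAL063C, chrI:24000-27968, minus strand), also for a lectin-like flocculin, had the most uneven change. It had 25.1, 26.6 and 24.5 TPM in the wild-type libraries and 19.3, 8.72 and 9.83 TPM in the knockout libraries. The wild-type libraries lay close together, while knockout library 1 lay nearer to the wild type than to the other knockout libraries. FLO9 fell 1.92-fold, at -0.94 ± 0.28 (log2, SE), with an edgeR adjusted p of 0.0211. Set against the wild-type mean on the log2 CPM scale, its differences were -0.34, -1.46 and -1.29 in knockout libraries 1 to 3. Without knockout library 1 its log2 fold change was -1.37, and the call ended without any 1 wild-type library or without knockout library 3, at adjusted p from 0.0519 to 0.0730.

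FLO1 (YAR050W, chrI:203403-208016, plus strand), the best known flocculin gene, was the only member called higher. It had the lowest mean TPM of the flocculin genes in both genotypes, with a range that overlapped FLO11 in the knockout. Its counts were 507, 678 and 515 in the wild type and 764, 620 and 666 in the knockout, or 2.97, 3.67 and 3.11 TPM against 4.63, 3.79 and 3.70 TPM. The highest wild-type library and the 2 lower knockout libraries nearly touched, so the groups were separate by a small margin. FLO1 rose 1.31-fold, at 0.39 ± 0.13 (log2, SE), with an edgeR adjusted p of 0.0370. This call ended with scaling by library totals only (adjusted p = 0.158), with both limma fits on TPM, and without any 1 library other than wild-type library 2, at adjusted p from 0.0541 to 0.115. The authors' deposited table gives FLO1 a log2 fold change of 0.38 and a false discovery rate of 0.0601.

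The sum of FLO1, FLO5 and FLO9 does not depend on how reads were divided among the 3 genes. It can still depend on reads that match other places. Of the 75-base stretches of FLO9, 3.4% also lie in the fragment YAL065C, and of those of FLO5, 1.5% lie in YHR213W. The sum held 7526, 9397 and 7159 counts in wild-type libraries 1 to 3 and 5670, 3619 and 4311 in knockout libraries 1 to 3. Each knockout library was below each wild-type library, with knockout library 1 the highest of its group. The sum fell 1.64-fold, with a wild-type mean of 214.7 ± 17.8 CPM and a knockout mean of 131.3 ± 31.4 CPM (SD, n = 3 each), at -0.71 ± 0.18 (log2, SE) and an edgeR adjusted p of 0.0117. Without knockout library 3 it was -0.64 with an adjusted p of 0.0518, and with library 1 left out instead it was -0.92.

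FLO10 (YKR102W, chrXI:646356-649865, plus strand), for another lectin-like flocculin, shared no stretch of 75 bases with other genes. It had 17.7, 17.8 and 15.7 TPM in the wild type and 12.6, 10.5 and 10.6 TPM in the knockout. The groups did not overlap, and the spread within each was small. FLO10 fell 1.44-fold, at -0.53 ± 0.11 (log2, SE) and an edgeR adjusted p of 0.00536, and the call held under each of the 18 alternatives. Knockout library 1 was again the nearest to the wild type, at -0.37 on the log2 CPM scale against -0.61 and -0.60 in libraries 2 and 3.

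FLO11 (YIR019C, chrIX:389572-393675, minus strand), for the adhesin of filamentous growth, had 4.04, 5.26 and 4.84 TPM in the wild type and 4.12, 4.60 and 4.49 TPM in the knockout. All 3 knockout libraries lay inside the range of the wild type. Its log2 fold change was -0.02 ± 0.12 (SE) with an edgeR adjusted p of 0.874, so a difference was not detectable at this spread. The sign of that value turned in 3 alternatives, to 0.05 with upper-quartile scaling, 0.05 when wild-type library 2 was left out and 0.03 when knockout library 1 was.

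**Figure D3:**
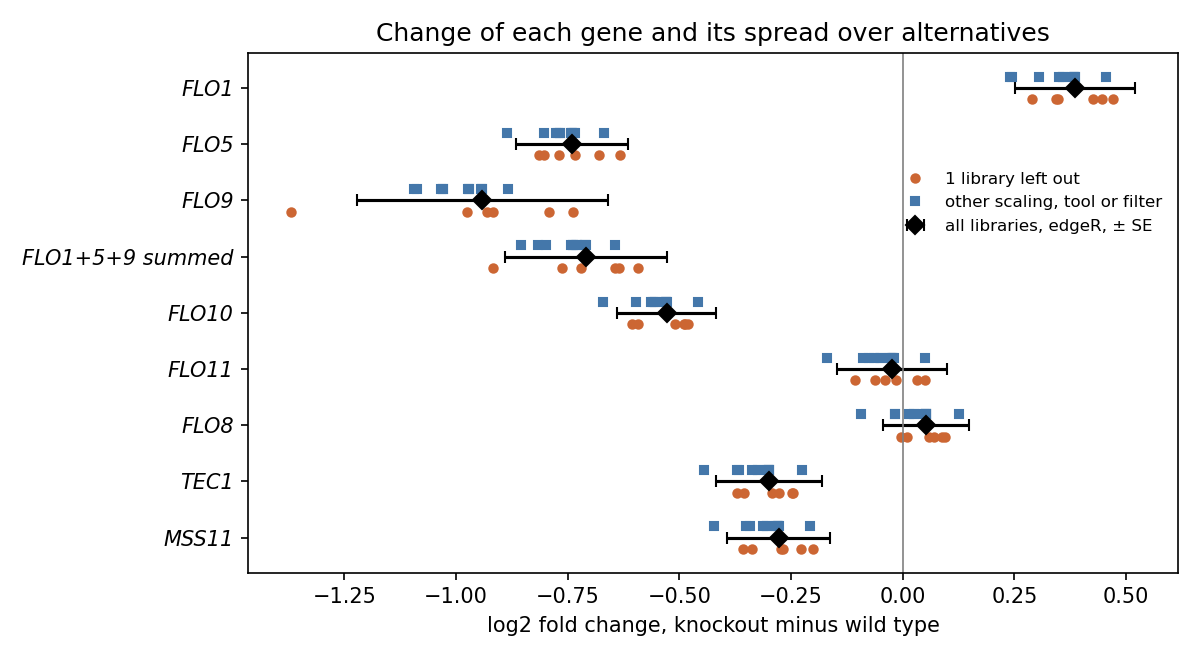
Log2 fold change (knockout minus wild type) of each gene and of FLO1, FLO5 and FLO9 summed, with black diamonds and bars for edgeR on all libraries ± SE, orange circles for fits without 1 library and blue squares for another scaling, tool, filter or block. FLO5, FLO9, FLO10, the sum, TEC1 and MSS11 stay below 0 throughout, and FLO1 stays above 0. FLO9 spreads most, down to -1.37 without knockout library 1, and FLO11 and FLO8 lie on both sides of 0.

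The flocculin genes kept their order of mean level per length, but in the knockout that order rested on library 1. By mean TPM the wild-type order was FLO5, FLO9, FLO10, FLO11 and FLO1, and no neighbours in that order overlapped across libraries. In the knockout the order of the means was the same, but FLO5 overlapped FLO9, FLO9 overlapped FLO10, and FLO11 overlapped FLO1. None of these overlaps held in knockout libraries 2 and 3 alone. There FLO9, at 8.72 and 9.83 TPM, lay below FLO10, at 10.5 and 10.6 TPM, so their order turned. FLO5 was at 15.5 and 16.8 TPM, FLO11 at 4.60 and 4.49 TPM and FLO1 at 3.79 and 3.70 TPM. As a share of the summed flocculin counts, which longer genes take more of, FLO1 held 5.13% ± 0.243 in the wild type and 10.4% ± 0.679 in the knockout (SD, n = 3 each). FLO9 held 34.7% ± 1.29 and 26.8% ± 7.07, with 34.9%, 21.9% and 23.5% in knockout libraries 1 to 3. FLO5 held 33.0% ± 1.87 and 30.6% ± 2.71, FLO10 20.6% and 22.0%, and FLO11 6.63% and 10.2%. In two-sided exact permutation tests the shares of FLO1 and FLO11 each had p = 0.1, the smallest that 3 against 3 libraries allows, those of FLO9 and FLO10 had p = 0.2, and that of FLO5 had p = 0.4. These 5 tests are 1 family whose shares sum to a fixed total, and none could pass 0.05.

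**Figure D4:**
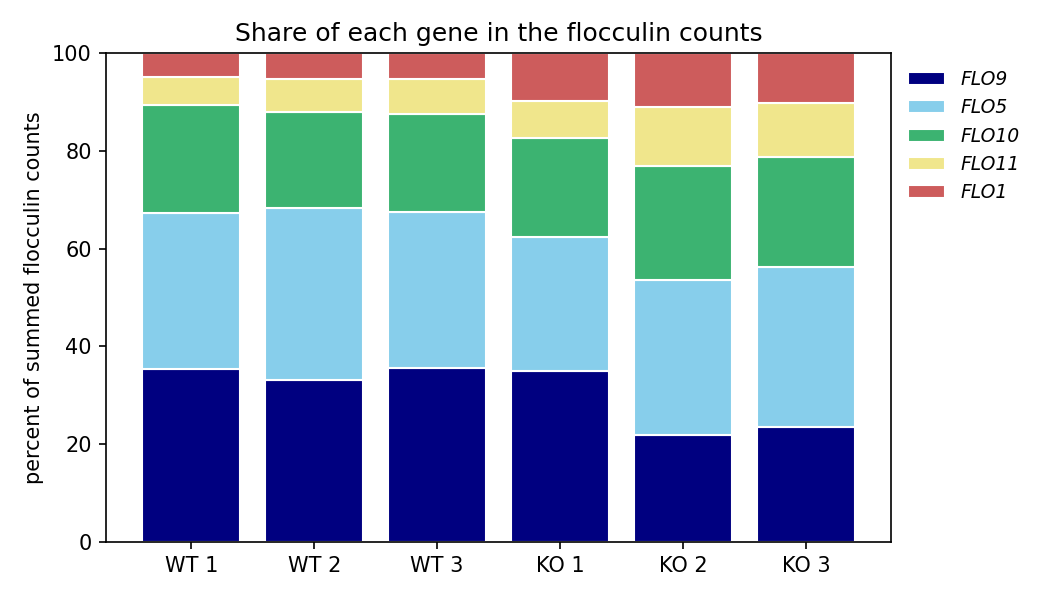
Share of each flocculin gene in the summed counts of FLO1, FLO5, FLO9, FLO10 and FLO11, in percent, for each wild-type (WT) and knockout (KO) library. FLO9 takes 33.2% to 35.5% in the wild type and 34.9%, 21.9% and 23.5% in knockout libraries 1 to 3, and FLO1 takes 4.86% to 5.31% and 9.72% to 11.1%.

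Flocculin-like fragments are annotated as separate short genes on the same chromosome ends. YAL065C (chrI:11565-11951, minus strand), which shared 42.8% of its 75-base stretches with FLO9, had 576, 546 and 501 counts in the wild type and 235, 118 and 160 in the knockout. Its groups did not overlap, and it fell 2.94-fold, at -1.56 ± 0.25 (log2, SE) and an edgeR adjusted p of 0.00192. Its differences from the wild-type mean were -1.07, -2.03 and -1.73 in knockout libraries 1 to 3, with library 1 nearest to the wild type as for FLO9. YHR213W (chrVIII:539151-539747, plus strand), which shared 9.0% with FLO5, had few reads, with 10, 23 and 13 counts against 30, 33 and 38. It rose 2.37-fold, at 1.25 ± 0.33 and an edgeR adjusted p of 0.0131. Leaving out wild-type library 1 ended that call (0.0507), as did leaving out knockout library 3 (0.0506). YAR061W and YAR062W were listed at 0 in all 6 libraries. Every 75-base stretch of YAR062W also lies in YHR213W, so the division of reads between this pair is uncertain too. The 75-base stretches of YAR061W likewise all occur elsewhere in the genome, so the zeros of YAR061W and YAR062W were not read as absence.

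The stretch before each flocculin gene is shown because FLO1 was called higher and FLO5, FLO9 and FLO10 lower, and because Kap114 carries the TATA-binding protein. The call of FLO1 ended in 9 of 18 alternatives. Each line gives 100 bases from RefSeq build R64 in the direction of the gene, and capitals mark the words TATAAA or TATATA. The stretches lie at chrI:203224-203323 (plus strand) for FLO1, chrVIII:525224-525323 (plus strand) for FLO5, chrI:28078-28177 (minus strand) for FLO9, chrXI:646183-646282 (plus strand) for FLO10 and chrIX:393757-393856 (minus strand) for FLO11.
FLO1: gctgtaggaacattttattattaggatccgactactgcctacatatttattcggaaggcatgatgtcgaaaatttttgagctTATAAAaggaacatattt
FLO5: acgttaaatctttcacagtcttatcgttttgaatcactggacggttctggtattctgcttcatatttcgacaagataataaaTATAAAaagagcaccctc
FLO9: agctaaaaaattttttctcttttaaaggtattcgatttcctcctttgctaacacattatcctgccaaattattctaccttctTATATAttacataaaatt
FLO10: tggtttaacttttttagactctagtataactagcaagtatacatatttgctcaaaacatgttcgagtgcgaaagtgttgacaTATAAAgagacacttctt
FLO11: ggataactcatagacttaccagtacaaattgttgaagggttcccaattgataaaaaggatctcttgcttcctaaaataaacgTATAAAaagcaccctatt
TATAAA began 97, 86, 91 and 99 bases before the start codon in FLO1, FLO5, FLO10 and FLO11, and FLO9 had TATATA 127 bases before it. Of 7069 windows of 250 bases before a gene, 42.2% held TATAAA and 30.2% held TATATA on either strand. The word TATAAA was present before the member called higher and before 2 of the 3 called lower. It was also present before FLO11, FLO8 and TEC1, which were not called. Whether these words bear on the changes was not tested. The word CATTCT, a form of the Tec1 site, lay in the 250 bases before FLO5 and FLO8 and in 14.7% of all windows, and CATTCC, another form, lay before FLO8 and in 8.74%. TGAAACA, the Ste12 site, lay before TEC1 and in 6.22%, and AGGGG, the stress response element, lay before MSS11 and in 18.0%. A match is a description of the letters and no evidence of binding, and known flocculin promoters reach well beyond this window.

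The flocculin genes lay 17.0 to 46.2 kb from a chromosome end, FLO10 the nearest and FLO11 the farthest, and their neighbours moved in both directions. GDH3, for a glutamate dehydrogenase, which lies 3598 bases from FLO9, fell 2.75-fold, with a wild-type mean of 1632 ± 132.4 CPM and a knockout mean of 592.9 ± 289.7 CPM (SD, n = 3 each). SIR1, for a silencing protein, which lies beside FLO10, fell 1.71-fold, at -0.77 ± 0.15 (log2, SE). YHR210C, beside FLO5, rose 2.11-fold, at 1.08 ± 0.17, so FLO5 and its neighbour changed in opposite directions. YAR047C and YAL063C-A, on one side of FLO1 and FLO9, fell from 0.411 to 0.127 CPM and from 0.315 to 0.154 CPM, both near the floor of 0.0778 to 0.0892 CPM that 3 counts make in 1 library. NFT1 beside FLO10 (0.11 ± 0.13), YHR212C beside FLO5 (0.10 ± 0.56) and YIR018C-A beside FLO11 (-0.83 ± 0.49) did not pass, and YAR053W beside FLO1 had 5 counts or fewer in each library. ICR1, a noncoding RNA that crosses the FLO11 promoter, was listed at 0 in all libraries, as were PWR1 and the abundant noncoding RNAs SCR1 and RPR1, so these zeros were not read as absence. Of 683 tested genes within 50 kb of a chromosome end, 201 rose and 196 fell. Both were somewhat smaller shares than the 34.3% called higher and 30% called lower over all tested genes. The median log2 fold change was -0.03 against 0.01.

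Among the regulators, none of the 3 passed the test. FLO8 (YER109C, chrV:375215-377614, minus strand), for an activator of FLO1, FLO9 and FLO11 under protein kinase A, carries an early stop codon in the S288C background, and the RefSeq genome of that background shows it. The 63 bases at chrV:377159-377221 (minus strand, RefSeq build R64) are given in the direction of the gene, with the stop codon in capitals.
FLO8: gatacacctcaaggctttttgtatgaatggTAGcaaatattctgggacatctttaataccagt
This TAG is codon 142 of 800, and an mRNA with this stop does not encode the full protein. Whether the strains sequenced carry it was not tested. FLO8 had 20.2, 23.4 and 23.9 TPM in the wild type and 22.3, 23.3 and 20.9 TPM in the knockout, with overlapping ranges. Its log2 fold change was 0.05 ± 0.10 (SE), with an edgeR adjusted p of 0.648, and it was -0.09 with scaling by library totals only.

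TEC1 (YBR083W, chrII:409169-410629, plus strand) had the highest level per length of the 8 genes in both genotypes. It had 103.0, 117.3 and 124.4 TPM in the wild type and 83.4, 85.6 and 97.3 TPM in the knockout. The groups did not overlap, yet the edgeR adjusted p was 0.0574, at -0.30 ± 0.12 (log2, SE). It passed with 6 alternatives of scaling or tool, among them DESeq2 (adjusted p = 0.0213) and scaling by library totals only (-0.44, adjusted p = 0.0151), which moved the median of all genes to -0.13.

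MSS11 (YMR164C, chrXIII:587274-589550, minus strand) had 34.3, 37.6 and 32.3 TPM in the wild type and 30.7, 24.2 and 27.0 TPM in the knockout. The knockout libraries were lower in TPM, while the groups overlapped in TMM-scaled CPM. Its log2 fold change was -0.28 ± 0.12 (SE) with an edgeR adjusted p of 0.0683, and it passed with DESeq2 (adjusted p = 0.0390). Without knockout library 1 it was -0.36 and passed. In the authors' deposited table the false discovery rates were 0.152 for TEC1 and 0.149 for MSS11.

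In both genotypes the regulators TEC1 and MSS11 had the highest mean levels per length of the 8 genes. MSS11 overlapped FLO5, the next in order, in the wild type and overlapped no neighbour in the knockout. FLO8 stood below FLO5 and FLO9 in the wild type and above all flocculin genes in the knockout. That shift in rank came with a FLO8 mean of 22.5 and 22.2 TPM and with FLO5 means of 29.9 and 17.0 TPM.

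Of 9 other activators of flocculin genes or filamentous growth, 5 rose and 3 fell, where 34.3% of all tested genes were called higher and 30% lower. Their median log2 fold change was 0.78 against 0.01 for all tested genes. GCN4, for the activator of amino acid synthesis genes, which also acts on FLO11, rose 2.47-fold, from 349.6 ± 39.1 to 820.5 ± 144.9 TPM (SD, n = 3 each). ASH1, for a daughter cell factor, rose 1.92-fold, with 44.0, 46.7 and 47.1 TPM in the wild type and 78.1, 91.7 and 82.2 TPM in the knockout. HMS1, for a factor of pseudohyphal growth, rose 2.18-fold. MSN1, for an activator of FLO11, fell 1.53-fold, from 74.9 ± 0.884 to 46.5 ± 3.19 TPM. STE12, for the partner of Tec1, fell 1.48-fold, at -0.56 ± 0.14 (log2, SE) and an edgeR adjusted p of 0.0107. It was chosen for naming once its values were known.

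Of 10 repressors of flocculin genes, 3 rose and 3 fell, with a median of -0.10. These counts are close to the 34.3% called higher and 30% called lower over all tested genes. NRG2 and HDA1, for a zinc finger repressor and a histone deacetylase, rose 1.71-fold and 1.78-fold, and CYC8, for the partner of the corepressor Tup1, rose 1.59-fold. SFL1, for the repressor that opposes Flo8 at FLO11, fell 1.96-fold, with 99.6, 83.0 and 89.7 TPM in the wild type and 57.1, 35.7 and 39.7 TPM in the knockout. Knockout library 1 was again the closest to the wild type.

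In the filamentous growth MAP kinase cascade, 2 of 9 genes rose and 4 fell, with a median of -0.12. The 6 called genes are close to the background of 64.3%. SHO1, for a membrane sensor shared with the osmotic stress pathway, rose 1.94-fold, and KSS1, for the MAP kinase of the cascade, rose 2.07-fold, from 7.62 ± 1.41 to 14.97 ± 2.78 TPM. STE7, for the kinase that phosphorylates Kss1, fell 1.72-fold and OPY2, for a membrane anchor, fell 1.77-fold. STE11 (-0.70 ± 0.18, log2, SE), for the kinase before Ste7, also fell; it was chosen for naming once its values were known.

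Of 8 genes of the Ras, cAMP and protein kinase A pathway, 6 fell and 1 rose, with a median of -0.55, beside background shares of 30% lower and 34.3% higher. GPA2, for the G protein alpha subunit of glucose sensing, fell 2.10-fold, from 728.5 ± 32.2 to 330.9 ± 92.4 TPM, and BCY1, for the regulatory subunit of the kinase, fell 1.78-fold. RAS2, for a Ras GTPase, fell 1.38-fold, and each single library except knockout library 1 ended that call when left out (edgeR adjusted p from 0.0556 to 0.104). The 1 that rose was TPK3, for a catalytic subunit, at 0.39 ± 0.11 (log2, SE), and its call ended with scaling by library totals only (adjusted p = 0.0854) and with limma on log2(TPM + 0.1) (0.0503). It also ended when wild-type library 1 (edgeR adjusted p = 0.0591) or knockout library 3 (0.0691) was left out. Without knockout library 3 only 2 of the 8 were called lower and 0 higher, and 2, 2 and 3 were called lower without wild-type library 1, 2 or 3.

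Of 4 known targets of filamentous growth signalling other than FLO11, 3 rose and 0 fell, where 34.3% of all tested genes were called higher. CLN1, for a G1 cyclin, had 4.20, 6.57 and 4.75 TPM in the wild type and 18.8, 25.5 and 22.9 TPM in the knockout, a 4.56-fold rise. YLR042C, for a cell wall protein whose gene responds to Tec1 and Ste12, rose 3.42-fold, and SVS1 rose 1.89-fold. PGU1, for a pectin-degrading enzyme, stayed near 1 TPM in both genotypes, at 0.890 ± 0.167 and 0.821 ± 0.117. Whether FLO11 differed in its change from these targets was not tested.

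Among other adhesin and mucin-like genes, 2 of 6 rose and 0 fell, with a median of 0.30, and the share that rose is close to the 34.3% of all tested genes. BSC1, for a protein that resembles Flo11, rose 6.69-fold, with 7.88, 20.6 and 14.6 TPM in the wild type and 57.0, 98.0 and 117.5 TPM in the knockout. Its groups were far apart, and both were uneven. AGA2, for the binding subunit of the a-agglutinin, rose 2.29-fold, while its anchor gene AGA1, which did not pass, was at 0.49 ± 0.23 (log2, SE), and FIG2 was at 0.11 ± 0.09. AGA1 passed without knockout library 1 (edgeR adjusted p = 0.00484).

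Of 8 silencing factors, which act on genes near chromosome ends, 4 fell and 2 rose, with a median of -0.33, where 30% of all tested genes were called lower and 34.3% higher. SIR2, for the histone deacetylase of silent chromatin, fell 1.93-fold, with 54.1, 57.1 and 59.6 TPM in the wild type and 37.7, 21.4 and 25.3 TPM in the knockout. SIR4 fell 1.59-fold, from 23.1 ± 1.05 to 13.9 ± 1.51 TPM, while SIR3 rose 1.37-fold and YKU70, for an end-binding protein, rose 1.38-fold. The 3 SIR genes of the silencing complex thus changed in both directions under each scaling tried. The call of YKU70 ended with scaling by library totals only (edgeR adjusted p = 0.0536), and without wild-type library 1 or knockout library 3 only 2 of the 8 factors were called lower. Of 5 genes for the remodeller Swi/Snf, a coactivator of FLO1, SWI1 fell 1.99-fold and SNF5 rose 1.24-fold, and SNF6 (-0.28 ± 0.12) and SWI3 (0.18 ± 0.10) did not pass. The call of SNF5 ended when any 1 library except knockout library 1 was left out (edgeR adjusted p from 0.0601 to 0.125), and with scaling by library totals only, where 3 of the 5 genes were called lower.

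**Figure D5:**
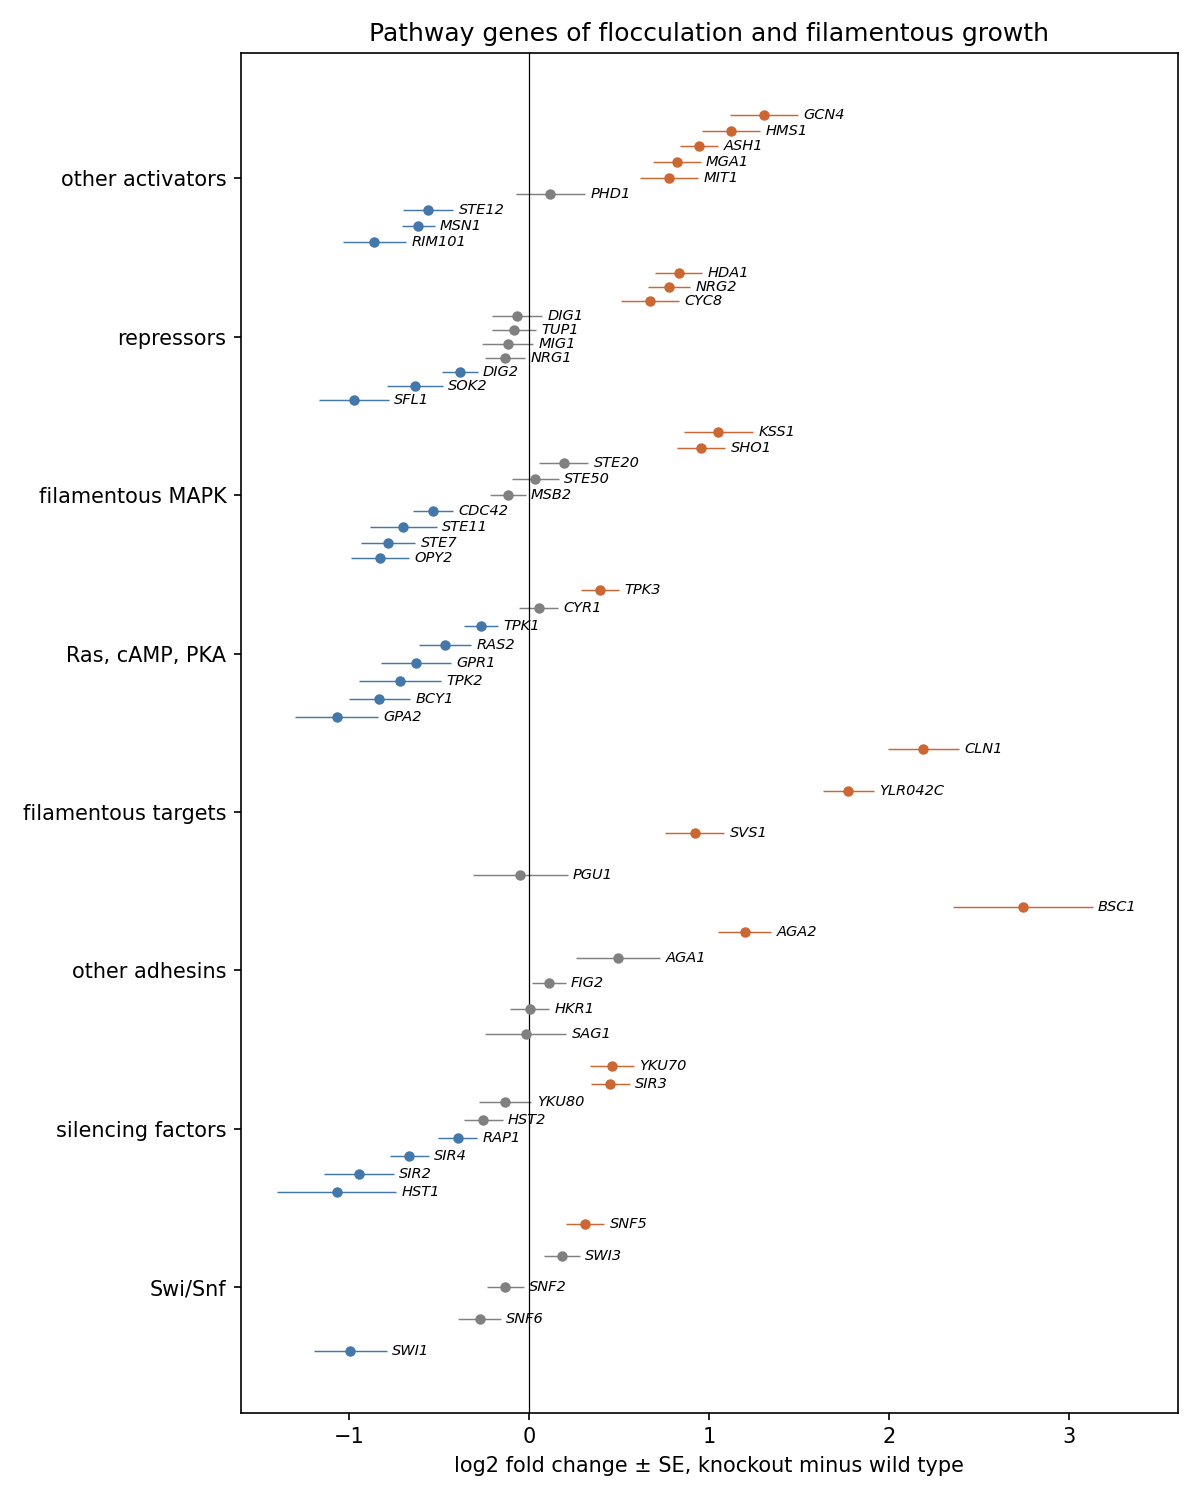
Log2 fold change ± SE (knockout minus wild type) of the tested genes in 8 lists of regulators, pathway genes and other adhesins, with orange for genes called higher, blue for genes called lower (edgeR adjusted p under 0.05) and grey for the rest. Most lists hold genes on both sides of 0, 6 of 8 genes of the Ras, cAMP and protein kinase A list lie lower, and CLN1 and BSC1 show the highest values, 2.19 and 2.74.

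The labels give no mating type, and adhesin and filamentous growth genes differ with it. The 6 a-cell markers summed to 354.5 to 536.6 TPM in the wild type and 552.2 to 637.4 TPM in the knockout, the 4 alpha-cell markers to 21.6 to 27.1 TPM and 17.1 to 28.4 TPM, and the 5 haploid markers to 452.6 to 463.2 TPM and 386.1 to 419.1 TPM, with 0 markers at 0 in all libraries. The a-cell sum was higher in every knockout library and the alpha-cell sums overlapped. STE2, for the alpha-factor receptor, had 41.4 ± 6.85 TPM in the wild type and 62.8 ± 5.20 TPM in the knockout. Alpha-cell markers were low, with STE3 at 1.12 ± 0.220 and 1.02 ± 0.542 TPM and MF(ALPHA)1 at 1.66 ± 0.404 and 2.48 ± 0.102 TPM. Of 6 a-cell genes 5 rose and 0 fell, among them STE6 (1.74-fold) and BAR1 (1.54-fold). The other, MFA1, did not pass, at -0.30 ± 0.21 (log2, SE). Of 4 alpha-cell genes 0 passed, although SAG1, the gene of the alpha-agglutinin, was at 19.5 ± 2.05 and 18.3 ± 6.08 TPM. The background shares for these counts are again 34.3% higher and 30% lower. Of 5 haploid genes STE4, for a G protein beta subunit, rose 2.09-fold and FUS3, for the mating MAP kinase, fell 1.54-fold. The part of these shifts in the flocculin results was not tested.

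Across the 6 libraries, the genes whose log2 CPM followed each flocculin gene most closely were different ones for each. For FLO5 they were GCG1, DPB3 and FOL2 (Pearson r from 0.993 to 0.994), for FLO9 TIS11, PCL7 and FLC2 (0.998 to 0.999), and for FLO10 LIP5, SWS2 and TDA3 (0.999). For FLO1 they were YLR154W-A, YMR245W and YDR541C (0.983 to 0.985). For FLO11 they were SCM4 (0.961), YCR022C (0.918) and MIF2 (0.912). These are the highest among 6080 genes over 6 libraries that differ in genotype, so high values are common and carry no test.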

How the data were processed

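The deposited table gives each library's counts of reads per gene, unnormalized and whole, together with RPKM and TPM values, per the file headers. A table by the authors holds a signed fold change (a score), the log2 of that fold, and a p-value with its false discovery rate per gene; they were used only where named. Libraries were poly(A)-selected and stranded, from 2 ug of RNA, per the labels' protocols. FastQC and genome build R64 are named, per the submitters' processing notes; the authors' aligner, counter, test and read length: not given in the sources used here. Of the table's identifiers, 6190 matched RefSeq R64 and 6174 of these (99.7%) had the same start and end. Library names carry TAF1, unexplained in the labels, and S numbers 1 to 3 for the wild type and 8 to 10 for the knockout, an order that cannot be told apart from genotype.

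Groups were taken from the titles. Low counts were filtered by filterByExpr (minimum count 10, minimum total 15), and genes were tested with edgeR 4.0.16 in R 4.3.3 (quasi-likelihood fit, robust, TMM scaling), with Benjamini-Hochberg adjustment over 6080 genes and a threshold of 0.05. Wild-type TMM factors were 1.02 to 1.07 and knockout factors 0.947 to 0.958, with a common biological coefficient of variation of 0.177. SEs came from the F statistic, TPM compares levels between genes, and CPM are TMM-scaled. Floors of 3 counts cover counting error only. On simulated data of 6049 genes with 200 changed, the test recovered 79% of changes of 1 and 99% of changes of 2 (log2). Of 198 calls, 21 were false, a larger share than the threshold of 0.05. In the real data 64.3% of tested genes were called, a setting that the simulation did not cover.

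The members, gene lists and tests were chosen with earlier results of these data known. Named genes were KAP114, the members, the flocculin-like fragments, the nearest gene on each side of each flocculin gene, up to 4 tested genes with the smallest p from every other list, and the 3 genes most like each flocculin gene. PWR1, SCR1, RPR1, STE11, STE12 and MFA1 were added after their values were seen. Sequences were read from RefSeq R64; word searches covered both strands of 250 bases before the start codon. Alternatives were scaling by RLE, upper quartile or library totals, leaving out RDN37, DESeq2 1.42.0, limma-voom, limma 3.58.1 on log2(TPM + 0.1) and log2(TPM + 1), omitting the filter, at least 1 CPM in 3 libraries, a replicate block and leaving out each library.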

Additional observations from a re-analysis of the deposited data

How the results depend on the processing

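FLO5, at -0.81 to -0.63, and FLO10, at -0.61 to -0.48 without 1 library, kept direction and call in all 18 alternatives. FLO1 lost its call with library totals only (0.24), library totals only without RDN37 (0.35, an alternative chosen after seeing the data), limma on log2(TPM + 1) (0.25) and limma on log2(TPM + 0.1) (0.31), and ranged from 0.29 to 0.47 without 1 library. FLO9 ranged from -1.37 to -0.74 and the sum of FLO1, FLO5 and FLO9 from -0.92 to -0.59. TEC1 passed with RLE scaling and DESeq2 (-0.32 each), library totals only (-0.44), library totals only without RDN37 (-0.34) and both limma fits on TPM (-0.37 each), and ranged from -0.37 to -0.24. MSS11 passed with RLE scaling and DESeq2 (-0.30 each), library totals only (-0.42), limma on log2(TPM + 1) (-0.34) and on log2(TPM + 0.1) (-0.35), and ranged from -0.36 to -0.20. FLO11 turned to 0.051 with upper-quartile scaling and ranged from -0.11 to 0.051. FLO8 turned to -0.094 with library totals only and -0.018 with both limma fits on TPM, and ranged from -0.0033 to 0.093. The causes were not tested.

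Members called numbered 6 with RLE scaling and DESeq2, 5 with library totals only and both limma fits on TPM, and 2 to 4 without 1 library. Genes called numbered 2819 to 4639 without 1 library, 1729 to 2378 higher and 1090 to 2261 lower, the last at 1211 when wild-type library 1 was left out and 1090 when knockout library 3 was, and pathway list genes called ranged from 35 to 55. Library totals only moved the median of all genes to -0.13 and the split of calls to 1763 higher and 2297 lower, and DESeq2 called 4191 genes. Share differences ranged over left-out libraries, in percentage points, from 4.86 to 5.54 for FLO1, -3.40 to -0.83 for FLO5, -11.96 to -5.48 for FLO9, 0.74 to 2.37 for FLO10 and 2.75 to 4.88 for FLO11.

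Genes of the lists whose sign turned had not passed: PGU1 was at 0.022, STE3 at 0.031 and SAG1 at 0.043 with upper-quartile scaling, and FIG2 was at -0.036 with library totals only. Over left-out libraries PGU1 ranged from -0.16 to 0.10, STE3 from -0.49 to 0.30 and SAG1 from -0.28 to 0.19.

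In the titles, wild-type and knockout libraries share the replicate numbers 1 to 3, but the library names number the knockout libraries differently. Deviations from the group means had Pearson r of 0.32, 0.18 and -0.067 across genes between libraries of the same title number. The numbers were not taken as pairs. With the replicate number as a block 3916 genes and the same number of members, 4, were called, and FLO9 was at -1.03 with an edgeR adjusted p of 0.00518. Wild-type library 2 correlated best with knockout library 3 (0.257).

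Depth limits few members, since each flocculin gene had at least 507 counts in every library, but 3 libraries a group and 1 divergent knockout library limit FLO9, and reads that match several genes limit FLO1, FLO5 and FLO9.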
